A study of Homo sapiens with 9 samples.

Results

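The 20S core particle of the proteasome was represented by 190 guides against 19 genes, out of 11170 guides against 1117 genes in a pooled sgRNA screen of U251 cells, an established human glioma line. The members were all guides whose target gene is named PSMA or PSMB followed by a digit, 10 guides per gene. U251 cells with stable sgRNA expression received temozolomide, a drug that alkylates DNA and is used against glioma, and guides were counted in their DNA after 72 hours. The 3 groups were 0, 200 and 1500 µM temozolomide, with 3 libraries each numbered 1 to 3, and all were grown in DMEM with serum. Titles and treatment protocol disagree on whether the doses are µM or nM, and µM is used here only to name the groups. The sources used here do not say whether the replicate numbers stand for separate cultures, or which nuclease and vector were used. All p-values therefore cover only variation among these libraries, some or all of which may be technical. Where 3 values are given for a dose, they are those of replicates 1, 2 and 3 in that order. No plasmid pool and no library from before the treatment was analysed here, so a guide lost during growth and a guide scarce in the starting pool cannot be told apart.

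The 20S particle is a barrel of stacked rings in which proteins marked with ubiquitin are cut into peptides. Its outer rings are built of alpha subunits (PSMA1 to PSMA7), which gate the entrance. Its inner rings are built of beta subunits (PSMB1 to PSMB7), of which PSMB5, PSMB6 and PSMB7 carry the active sites. These 14 constitutive genes make the standard particle of nearly all cells. PSMB8, PSMB9 and PSMB10 take the places of the active subunits in the immunoproteasome, which is induced by interferon. PSMB11 takes the place of PSMB5 in the thymus, and PSMA8 takes the place of PSMA7 in the testis. These 5 genes are called tissue-specific below. The files name each guide by its gene and a number and give no guide sequence, so none is printed.

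The smallest library held 1852340 counts and the largest 2790563, an average of 166 and 250 per guide. Levels are given as CPM, the counts scaled to a common library total. A count of 0 allows up to 3 counts, or 1.08 to 1.62 CPM depending on the library, and this limit covers counting error only. One guide outside the 20S genes, UBE2A.7, took 4.97 to 18.6% of the counts with 1500 µM, against 0.155 to 1.13% at 0 µM, which lowers the CPM of all other guides there.

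Guides against the constitutive subunits were scarce in every library. Guides against the tissue-specific subunits were not as a class, although their level was carried by PSMB8 and PSMB11, and PSMB10, PSMB9 and PSMA8 averaged 818, 691 and 606 CPM per gene at 0 µM, below the median of 873 CPM over all genes. At 0 µM the 140 constitutive guides averaged 18.9 ± 2.60 CPM per guide, the 50 tissue-specific guides 111 ± 18.99 CPM, and the 10980 guides outside the 20S genes 90.3 ± 0.112 CPM (SD, n = 3 libraries). Scaling to the library total nearly fixes the average of the outside guides, so its SD does not show their variation. The median over the outside guides ran 36.2 to 48.6 CPM in the same libraries. The constitutive level was 4.84 ± 0.722 times lower than that of the guides outside the 20S genes and 5.87 ± 0.679 times lower than that of the tissue-specific guides (SD, n = 3). Over all 9 libraries these ratios lay between 4.08 and 5.68 and between 4.23 and 6.39. The tissue-specific guides were above the guides outside the 20S genes in all 9 libraries, by 1.04 to 1.47 times. The average of the guides outside the 20S genes includes UBE2A.7. The ratio of 5.68 was in replicate 2 with 1500 µM, where UBE2A.7 took 18.6% of the counts. The ratio of 1.04 was in replicate 3 with 1500 µM, where it took 4.97%. Ratios without UBE2A.7 were not computed. No test was made of these levels, since the members were chosen.

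On a log scale the gap was present in each library. The mean log2(CPM + 1) of constitutive guides at 0 µM differed by -3.11 ± 0.05 from that of the guides outside the 20S genes and by -3.56 ± 0.18 from that of the tissue-specific guides (SD, n = 3). Over the 9 libraries the 2 differences ran -3.31 to -2.88 and -3.96 to -3.28. Their size depended on the treatment of guides at 0. At 0 µM they were -2.09 and -2.47 with a pseudocount of 5, -1.98 and -2.46 over guides that reached 10 counts in 3 or more libraries, and -5.10 and -5.64 as a difference of medians. By dose, the difference from the guides outside the 20S genes was -3.11 ± 0.05 with 0 µM, -2.99 ± 0.09 with 200 µM and -3.06 ± 0.21 with 1500 µM (SD, n = 3).

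Absence followed the same division. Of the 140 constitutive guides, 68 to 88 had no count in a given library, or 48.6 to 62.9%. Of the 50 tissue-specific guides, 4 to 6 had none, or 8 to 12%, and of the guides outside the 20S genes 9.54 to 14.8% had none. The largest number of absent constitutive guides, 88, was in replicate 1 with 1500 µM, which was also the library with the most counts. All 9 libraries were at 0 for 16 constitutive guides (11.4%), 1 tissue-specific guide, PSMA8.10, and 131 guides outside the 20S genes (1.19%). The 16 were PSMA2.5, PSMA2.6, PSMA2.9, PSMA3.2, PSMA5.3, PSMA5.10, PSMA6.2, PSMA6.4, PSMB1.9, PSMB3.1, PSMB3.4, PSMB4.6, PSMB4.8, PSMB5.3, PSMB6.2 and PSMB7.2. They came from 10 of the 14 genes, and PSMA1, PSMA4, PSMA7 and PSMB2 had none.

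Many constitutive guides that were seen at all were seen in few libraries. Of the 140, 37 never reached 10 counts, 33 did so in 1 or 2 libraries, 54 in 3 to 8 and 16 in all 9. Of the 50 tissue-specific guides, 37 reached 10 counts in all 9 libraries, and of the 10980 guides outside the 20S genes 6630 did. PSMB4.3 had 43 counts in replicate 1 with 200 µM and none in the other libraries. PSMA3.6 had 34 counts in replicate 2 with 1500 µM and none elsewhere.

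The regulatory 19S particle, which binds the ends of the core, unfolds substrates and feeds them in, was the nearest set of genes in function. Its 180 guides against 18 genes averaged 48.5 ± 1.66 CPM per guide at 0 µM (SD, n = 3). The constitutive 20S guides were 2.59 ± 0.376 times lower at 0 µM (SD, n = 3), and 2.16 to 3.004 times lower over the 9 libraries. At 0 µM the 20S alpha ring had 24.2 ± 4.88 CPM per guide, PSMB1 to PSMB4 13.2 ± 9.62 CPM and PSMB5 to PSMB7 14.3 ± 7.42 CPM (SD, n = 3). The 6 ATPase genes PSMC1 to PSMC6 of the 19S particle had 30.0 ± 1.36 CPM, and its non-ATPase genes 57.7 ± 1.81 CPM (SD, n = 3). Between 22.8 and 33.3% of the 19S guides were at 0 in a given library, and 28.3 to 40.0% of the ATPase guides.

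Among the alpha subunits, PSMA1 stood highest and PSMA3 lowest. PSMA1 guides summed to 862, 611 and 612 CPM with 0 µM, 1009, 727 and 440 CPM with 200 µM, and 1289, 553 and 532 CPM with 1500 µM in replicates 1, 2 and 3. At 0 µM PSMA1 lay at the 33.1st percentile of the 1117 genes by summed CPM. Replicate 1 was the highest at each dose. PSMA6 summed to 409, 231 and 647 CPM with 0 µM, 524, 313 and 569 CPM with 200 µM, and 647, 220 and 632 CPM with 1500 µM. For PSMA6, replicate 2 was the lowest at each dose.

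PSMA4 summed to 142, 259 and 208 CPM with 0 µM, 141, 204 and 193 CPM with 200 µM, and 171, 92.4 and 143 CPM with 1500 µM. PSMA7, whose place PSMA8 takes in the testis, summed to 118, 197 and 60.5 CPM with 0 µM, 92.8, 273 and 92.2 CPM with 200 µM, and 90.7, 110 and 72.9 CPM with 1500 µM. In both genes the libraries of the 3 doses overlapped.

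PSMA2 and PSMA5 were carried by replicate 3. PSMA2 summed to 47.0, 57.6 and 355 CPM with 0 µM, 16.4, 71.7 and 292 CPM with 200 µM, and 46.9, 28.3 and 304 CPM with 1500 µM. PSMA5 summed to 13.5, 28.1 and 169 CPM with 0 µM, 41.1, 51.5 and 158 CPM with 200 µM, and 20.1, 66.4 and 298 CPM with 1500 µM. Replicate 3 held 78.0% of the PSMA2 level and 73.9% of the PSMA5 level over the 9 libraries. PSMA3 had the lowest mean of the 20S genes at 0 µM, with 86, 13 and 21 counts over its 10 guides at that dose, 298, 3 and 0 counts with 200 µM, and 117, 36 and 95 counts with 1500 µM. In replicate 1 at 0 µM, PSMB4, PSMB1, PSMA5 and PSMB3 had fewer counts than PSMA3, namely 0, 18, 25 and 81. PSMA3 lay at the 0.179th percentile of all genes at 0 µM.

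The structural beta subunits, PSMB1 to PSMB4, have no active site, and their guides were scarce too. PSMB2 was the highest of them, at 76.1, 696 and 275 CPM with 0 µM, 136, 727 and 368 CPM with 200 µM, and 174, 474 and 297 CPM with 1500 µM. Replicate 2 was the highest and replicate 1 the lowest at each dose. PSMB1 had 18, 224 and 213 counts with 0 µM, 19, 178 and 262 counts with 200 µM, and 2, 287 and 325 counts with 1500 µM, so that replicate 1 nearly lacked it at every dose. PSMB3 had 81, 143 and 54 counts with 0 µM, 82, 107 and 143 with 200 µM, and 110, 226 and 64 with 1500 µM. PSMB4 had 0, 98 and 255 counts with 0 µM, 134, 95 and 523 with 200 µM, and 143, 145 and 304 with 1500 µM. Replicate 3 was the highest for PSMB4 at each dose, and its single 0 was in replicate 1 with 0 µM.

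The catalytic subunits can be set beside the immunoproteasome subunits that replace them. PSMB5, which carries the chymotrypsin-like site bound by clinical proteasome inhibitors, summed to 117, 35.1 and 26.5 CPM with 0 µM, 99.6, 53.0 and 58.1 CPM with 200 µM, and 34.4, 51.1 and 80.04 CPM with 1500 µM. PSMB8, its counterpart, summed to 1519, 1862 and 1719 CPM with 0 µM, 2004, 1821 and 1500 CPM with 200 µM, and 1880, 1507 and 1646 CPM with 1500 µM. Every PSMB8 value was above every PSMB5 value.

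PSMB6, with the caspase-like site, summed to 82.6, 553 and 63.7 CPM with 0 µM, 140, 366 and 69.4 CPM with 200 µM, and 53.8, 276 and 156 CPM with 1500 µM. PSMB9, its counterpart, summed to 983, 442 and 649 CPM with 0 µM, 1121, 392 and 602 CPM with 200 µM, and 961, 374 and 817 CPM with 1500 µM. The 2 genes overlapped only through replicate 2, which was the highest for PSMB6 and the lowest for PSMB9 at each dose. At 0 µM replicate 2 had more PSMB6 than PSMB9.

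PSMB7, with the trypsin-like site, summed to 269, 39.4 and 97.2 CPM with 0 µM, 433, 42.9 and 137 CPM with 200 µM, and 164, 85.7 and 211 CPM with 1500 µM. PSMB10, its counterpart, summed to 849, 1054 and 550 CPM with 0 µM, 1049, 1114 and 693 CPM with 200 µM, and 830, 827 and 513 CPM with 1500 µM. The lowest PSMB10 value was above the highest PSMB7 value.

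PSMB11 had the highest mean of the 20S genes at 0 µM through replicate 2, while PSMB8 was higher in replicates 1 and 3 and over all 9 libraries, where PSMB11 averaged 1604 CPM and PSMB8 1718 CPM. It summed to 1086, 2631 and 1492 CPM with 0 µM, 1427, 2369 and 1270 CPM with 200 µM, and 1235, 1775 and 1151 CPM with 1500 µM, with all 10 guides above 10 counts in all 9 libraries. PSMB11 and PSMB8 lay at the 96.9th and 96.2nd percentile of all genes at 0 µM. PSMA8 summed to 459, 653 and 707 CPM with 0 µM, 446, 696 and 691 CPM with 200 µM, and 597, 531 and 560 CPM with 1500 µM. PSMA8 was unlike the other 4 tissue-specific genes in its absent guides. Of its 10 guides, 2 to 4 were at 0 in a given library, against 1 to 2 of the 40 guides of PSMB8, PSMB9, PSMB10 and PSMB11. By mean log2(CPM + 1) over its guides, PSMA8 lay at the 12.3rd percentile of all genes at 0 µM, below PSMA1 at the 17.9th, while PSMB9, PSMB10, PSMB8 and PSMB11 lay at the 65.6th, 47.7th, 94.3rd and 98.7th.

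Ordered by mean summed CPM with 0 µM, the genes ran PSMB11, PSMB8, PSMB10, PSMA1, PSMB9, PSMA8, PSMA6, PSMB2, PSMB6, PSMA4, PSMA2, PSMB7, PSMA7, PSMB1, PSMA5, PSMB4, PSMB5, PSMB3 and PSMA3. The means ran between 1736 ± 801 CPM for PSMB11 and 21.1 ± 22.1 CPM for PSMA3 (SD, n = 3). The only neighbours in this order whose 3 libraries did not overlap were PSMB8, at 1519 to 1862 CPM, and PSMB10, at 550.1 to 1054 CPM. The median over all 1117 genes was 873 CPM. All 14 constitutive genes lay below the middle of the ranking of all genes, 11 of them below the 10th percentile and 9 below the 5th, a description over genes that carries no test. Of the 5 tissue-specific genes, PSMA8, PSMB9 and PSMB10 also lay below the middle, at the 24.8th, 32.8th and 44.0th percentile, and PSMA8 and PSMB9 lay below PSMA1.

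Single guides carried most of the level of several constitutive genes. Averaged over the 9 libraries, PSMA2.10 made up 86.5% of the PSMA2 level, PSMB2.1 69.7% of PSMB2, PSMB6.10 67.4% of PSMB6, PSMB3.2 67.2% of PSMB3 and PSMA3.7 60.7% of PSMA3. The most abundant guide held 29.1 to 44.0% in the other 9 constitutive genes, among them PSMA1.10, PSMA4.8, PSMA5.7, PSMA6.9, PSMA7.6, PSMB1.4, PSMB4.2, PSMB5.9 and PSMB7.5. In the tissue-specific genes it held 19.7% (PSMB8.9) to 36.0% (PSMA8.1).

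The 16 constitutive guides with at least 10 counts in all 9 libraries came from 8 genes. They were 4 against PSMA1, 3 each against PSMA4 and PSMA6, 2 against PSMB6, and 1 each against PSMA7, PSMB2, PSMB5 and PSMB7. PSMA1.3 had 82.0, 179 and 215 CPM with 0 µM, 189, 174 and 192 CPM with 200 µM, and 186, 136 and 209 CPM with 1500 µM. PSMA1.2 had 83.1, 202 and 184 CPM with 0 µM, 108, 284 and 190 CPM with 200 µM, and 175, 195 and 113 CPM with 1500 µM. Both were above the average over all guides, 89.5 CPM, in 8 of the 9 libraries, whereas PSMA1.8 and PSMA1.9 reached 10 counts in none.

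Other abundant guides belonged to 1 replicate number. PSMB6.10 had 20.5, 483 and 24.3 CPM with 0 µM, 37.2, 309 and 17.5 CPM with 200 µM, and 6.45, 237 and 50.7 CPM with 1500 µM. PSMA2.10 had 45.3, 48.9 and 334 CPM with 0 µM, 3.87, 57.1 and 240 CPM with 200 µM, and 29.4, 25.9 and 269 CPM with 1500 µM. PSMB7.5 was at 0 in replicate 2 at every dose and had 144 and 13.0 CPM in replicates 1 and 3 with 0 µM. PSMB1.4 had 77.7, 104 and 119 CPM in replicate 3 at 0, 200 and 1500 µM, and at most 2.90 CPM elsewhere. Guides of tissue-specific genes did this too. PSMB11.1 had 47.0, 989 and 118 CPM with 0 µM, 96.7, 1077 and 79.2 CPM with 200 µM, and 88.5, 772 and 120 CPM with 1500 µM.

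The share of such guides was counted in each class. Of the 70 constitutive guides that reached 10 counts in 3 or more libraries, 21 (30.0%) had over 80% of their summed CPM in libraries of 1 replicate number. The figure was 7 of 47 (14.9%) for tissue-specific guides and 1334 of 10220 (13.1%) for guides outside the 20S genes. Among the 19S guides it was 33 of 142 (23.2%), and 13 of 43 (30.2%) for the ATPases alone. The count filter kept 70 of 140 constitutive guides, against 10220 of 10980 guides outside the 20S genes. Each replicate number has 3 libraries, so a sparse guide could pass the filter through 1 replicate number alone. Constitutive guides also had lower counts. The parts of the filter and of the lower counts in these shares were not tested, and no test of the difference was made. Of the 21, 3 belonged to replicate 1, 8 to replicate 2 and 10 to replicate 3.

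Which constitutive guides were present also followed the replicate number, as it did for the other guides of the table. Of the constitutive guides with at least 10 counts in 1 library, a median of 77.6% also had them in another library of the same number and another dose, over 9 pairs of libraries (range 58.2 to 91.8%, as a share of either library's list). Between libraries of the same dose and different numbers the median was 61.5% over 9 pairs (range 48.3 to 79.2%). For tissue-specific guides the medians were 95.6 and 95.3%, for 19S guides 86.7 and 81.0%, and for all guides outside the 20S genes 94.0 and 90.5%. Across the 140 constitutive guides, log2(CPM + 1) correlated at 0.75 to 0.87 between libraries of the same number and at 0.48 to 0.62 between libraries of the same dose. The ranges were 0.86 to 0.95 and 0.57 to 0.78 across the 50 tissue-specific guides, 0.82 to 0.88 and 0.54 to 0.66 across the 180 19S guides, and 0.83 to 0.91 and 0.52 to 0.60 across the guides outside the 20S genes. Guides are not independent replicates, so these correlations describe the libraries.

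Against this background the doses did not separate. The summed level of the 140 constitutive guides was 2235, 2912 and 2808 CPM with 0 µM, 2891, 3024 and 2752 CPM with 200 µM, and 2823, 2229 and 3100 CPM with 1500 µM in replicates 1, 2 and 3. The 50 tissue-specific guides summed to 4897, 6641 and 5118 CPM with 0 µM, 6047, 6392 and 4757 CPM with 200 µM, and 5503, 5015 and 4687 CPM with 1500 µM. All 190 guides summed to 8203 ± 1234 CPM with 0 µM, 8621 ± 992 CPM with 200 µM and 7786 ± 541 CPM with 1500 µM (SD, n = 3). The groups overlapped in each case. Scaled to TMM effective library sizes, the 190 guides summed to 8623 ± 1756 CPM with 0 µM, 8113 ± 1567 CPM with 200 µM and 8011 ± 990 CPM with 1500 µM (SD, n = 3), so that the order of 0 and 200 µM turned.

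The comparison of 1500 with 0 µM asked which guides became more or less frequent under the highest dose. No 20S guide and no 20S gene passed. Of the 190 guides, 117 had at least 10 counts in at least 3 libraries and were tested, 70 constitutive and 47 tissue-specific. The count was 0 of 117 guides and 0 of 19 genes (summed over guides) at an adjusted p of 0.05 in edgeR's quasi-likelihood test, where 0% of all 10337 guides and 0% of all 1117 genes were called. At an unadjusted p under 0.05 it was 0 of the 117 guides and 0 of the 19 genes, against 0.203% of all guides and 0.269% of all genes. With the replicate number as a block 2 of the 117 guides and 1 of the 19 genes, PSMA5, were under an unadjusted 0.05, against 2.61% of all guides and 6.62% of all genes. No 20S guide or gene was called in edgeR with the block, where 0% of all guides and 0.0895% of all genes were, in limma on the genes' mean log2(CPM + 1) with the block, where 0.0895% of all genes were, or in DESeq2 with the block, where 0.058% of all guides and 0.269% of all genes were. DESeq2 without the block called none of them either, where 0% of all guides and 0.0895% of all genes were called.

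The tested 20S guides had a median log2 fold change of 0.02 at 1500 over 0 µM, against -0.08 for all tested guides, with 60 higher and 57 lower. Of all tested guides, 43.9% were higher. With the block the median was -0.02, against -0.02 for all tested guides, with 56 higher and 61 lower. Of all tested guides, 48.9% were higher in that fit. Without the block the median was 0.11 over the 70 tested constitutive guides and -0.13 over the 47 tested tissue-specific guides. With the block these were 0.11 and -0.09. The 19 genes had a median of 0.08 without the block, against -0.03 for all genes, with 11 higher and 8 lower. With it they had 0.12, against -0.01, with 12 higher and 7 lower. Of all genes, 44.8% were higher without and 48.3% with the block.

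PSMA5 had the highest log2 fold change of the genes, 0.95 ± 1.13, and PSMA4 the lowest, -0.50 ± 0.46 (SE, edgeR). With the block PSMA5 had 0.99 ± 0.45 and an adjusted p of 0.739 in edgeR's quasi-likelihood test. PSMB4 had 0.60 ± 1.32, and with the block 1.42 ± 1.03, the highest of the 19 genes in that fit. It was 0.017 without replicate 1 at 0 µM and 2.04 without replicate 3 at 0 µM. The catalytic subunits PSMB5, PSMB6 and PSMB7 had -0.06 ± 0.79, -0.38 ± 0.92 and 0.22 ± 0.73 (SE). With the block they had 0.25 ± 0.70, -0.04 ± 0.42 and 0.60 ± 0.45 (SE), so that PSMB5 turned sign. Among the tissue-specific genes, PSMB8 had 0.08 ± 0.30, PSMB9 0.11 ± 0.43, PSMB10 -0.07 ± 0.38 and PSMB11 -0.20 ± 0.43 (SE). With the block these 4 genes had 0.08 ± 0.16, 0.12 ± 0.16, -0.06 ± 0.15 and -0.15 ± 0.17 (SE). The SE of the 5 tissue-specific genes had a median of 0.38 (range 0.30 to 0.43), and that of the 14 constitutive genes 0.77 (range 0.42 to 1.35). With the block these were 0.16 (range 0.15 to 0.18) and 0.44 (range 0.17 to 1.03). The ranges overlapped through PSMA1. None of these p-values shows that a level did not differ.

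Some of the guides of lowest p at 1500 against 0 µM had few counts. PSMA8.7 had 41, 30 and 0 counts in replicates 1, 2 and 3 with 1500 µM and none at 0 µM, which allows up to 3 counts per library there, so no fold change is given. PSMB8.6 had 46, 22 and 108 counts with 1500 µM, against 1, 0 and 18 counts with 0 µM, a log2 fold change of 2.90 ± 1.87 (SE, edgeR), 4.05 ± 1.61 with the block. It ran 2.06 to 6.11 with a library left out, the highest without replicate 3 at 0 µM. PSMB8.6 was higher in all 3 replicate numbers. PSMA4.1 had 17.6, 29.5 and 38.8 CPM with 1500 µM, against 31.8, 134 and 56.7 CPM with 0 µM, a log2 fold change of -1.44 ± 0.82. PSMB10.1 had 12.9, 46.8 and 21.8 CPM with 1500 µM, against 52.3, 96.1 and 35.1 CPM with 0 µM, and -1.18 ± 0.88. PSMA4.1 and PSMB10.1 were lower in all 3 replicate numbers. The adjusted p of each of these 4 guides was 0.99998 in edgeR without the block and 0.999 with it.

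At 200 against 0 µM, 0 of 117 guides and 0 of 19 genes passed in edgeR, where 0% of all guides and 0% of all genes were called. None of the 117 guides or 19 genes had an unadjusted p under 0.05, against 0.135% of all guides and 0% of all genes. With the block none of them did either, against 2.23% and 5.37%. DESeq2 called no 20S guide or gene with the block, where it called 0.058% of all guides and 0.0895% of all genes, or without it, where it called 0% of both. The tested 20S guides had a median log2 fold change of -0.07, against -0.09 for all tested guides, with 52 higher and 65 lower. The genes had 0.08, against -0.03 for all genes. With the block the guides had -0.08, against -0.08, with 54 higher and 63 lower, and the genes 0.02, against -0.01. Of all tested guides, 42.5% were higher without and 44.4% with the block. The 200 and 1500 µM groups were set against the same 3 libraries at 0 µM, so their values are not independent.

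At 1500 against 200 µM, 0 of 117 guides and 0 of 19 genes passed in edgeR, where again 0% of all guides and genes were called. None had an unadjusted p under 0.05, against 0.203% of all guides and 0.0895% of all genes. With the block 1 guide and 1 gene did, against 1.95% and 6.62%. The gene was PSMB10, with 830, 827 and 513 CPM with 1500 µM, against 1049, 1114 and 693 CPM with 200 µM in replicates 1, 2 and 3. PSMB10 was lower in all 3 replicate numbers. Its log2 fold change was -0.23 ± 0.34 without and -0.26 ± 0.12 with the block (SE). With a library left out and no block it ran -0.43 to -0.008. The adjusted p of PSMB10 with the block was 0.733 in edgeR's quasi-likelihood test. With the block DESeq2 called 43 guides and 24 genes of the whole table, or 0.416% and 2.15%. No 20S guide or gene was among them. In that fit only 4926 of 10337 guides and 943 of 1117 genes received an adjusted p, and the rest could not be called. How many 20S guides and genes were left without an adjusted p was not counted. Without the block it called 0% of all guides and 0.0895% of all genes, again no 20S member. The tested 20S guides had a median log2 fold change of -0.01, against 0.01 for all tested guides. With the edgeR block these were 0.01 and 0.05. The 19 genes had a median of -0.06 without the block, against -0.01 for all genes, with 9 higher and 10 lower. With it they had 0.05, against -0.002, with 10 higher and 9 lower. Of all genes, 47% were higher without and 49.5% with the block.

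Of 36 other genes of the proteasome pathway, 24 were measured, namely 18 of the 19S particle, the activators PSME1 to PSME4, the inhibitor PSMF1 and the unfoldase VCP. None passed in either direction in any of the 3 comparisons in edgeR, with or without the block. At 1500 against 0 µM, 16 of the 24 were higher and 8 lower, with a median log2 fold change of 0.10, and the gene of lowest p was PSMD11 at 0.62 ± 0.43 (SE). Of all genes, 44.8% were higher. With the block 16 of the 24 were higher too, and the gene of lowest p was PSMD1 at 0.77 ± 0.30 (SE).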

How the data were processed

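The values are raw sgRNA counts of 9 libraries, used as the authors deposited them. Per the submitters' processing notes, cutadapt 1.18 and MAGeCK 0.5.8 were used and hg19 was the genome build. Mismatch settings and filters were not stated in what was read here. No coordinate was used, and all 19 gene symbols were found in a RefSeq table of assembly GRCh38.p14.

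CPM was computed on library totals, and log2 levels with a pseudocount of 1. Testing required 10 counts or more in 3 or more libraries, and a gene's counts were summed over its 10 guides. The quasi-likelihood test of edgeR 4.0.16 in R 4.3.3, with robust dispersions and TMM scaling, compared each pair of doses on 6 libraries without a block, with Benjamini-Hochberg adjustment over the whole table and a threshold of 0.05. An SE was taken as the size of the log2 fold change divided by the root of its F statistic, which is approximate near 0 counts. Once dose means were removed, same-numbered libraries correlated at 0.66 to 0.78 (9 pairs) and the others at -0.45 to -0.26. Removing the mean of 3 libraries pushes the others below 0 when same-numbered pairs are above it, so the negative values are no separate support. From the same-numbered pairs, the numbers were taken to pair the libraries. The blocked value stands where it moves a count. Alternatives were the block, DESeq2 1.42.0, limma 3.58.1, other count filters, all 9 libraries in the fit, sums without the most abundant guide, and each library left out. Summaries used Python 3.11.15 with pandas 2.3.3. The fits were run on simulated data, whose outcome is not given here. Guide changes were planted only in guides with at least 10 counts in all 9 libraries that also passed a minimum mean count. Of the 140 constitutive guides, 16 met the first condition, and how many of them also met the second was not counted. The simulation therefore does not show whether a change in the sparser guides would be found.

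The members, lists and roles were chosen with earlier results of these data known. Named guides are the most abundant one of each gene, those at 0 in all libraries, and up to 3 of lowest p per comparison and direction. PSMA1.2, PSMA1.3, PSMA1.8, PSMA1.9, PSMA3.6 and PSMB4.3 were added after their values were seen.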

Additional observations from a re-analysis of the deposited data

How the results depend on the processing

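No 20S guide or gene was called in any of the 84 alternative counts over the 3 comparisons, with the lowest adjusted p at 0.197 (DESeq2 with the replicate block). In several of its fits DESeq2 gave some guides and genes of the table no adjusted p, and those could not be called. With the replicate block in edgeR the calls stayed at 0, as they did with each library left out. Without the block, 0.135 to 0.203% of all guides had an unadjusted p under 0.05 in edgeR's quasi-likelihood test, depending on the comparison. That share lies far below the threshold itself, so 0 calls without the block say little about the 20S guides. Without the most abundant guide of each gene the 20S guides summed to 5557, 5852 and 5472 CPM at 0, 200 and 1500 µM. The difference of constitutive from outside guides at 0 µM was -2.09 with a pseudocount of 5, -1.98 over tested guides and -5.10 by medians, and that from tissue-specific guides -2.47, -2.46 and -5.64. With a library left out the 2 differences were -3.14 to -3.09 and -3.66 to -3.49, and the summed level was 7529 to 8739, 8223 to 9176 and 7515 to 8056 CPM at 0, 200 and 1500 µM.

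Of 211 recomputed values of the 14 named fold changes, 21 turned sign. At 1500 over 0 µM, PSMB5 turned to 0.25 with the replicate block, 0.26 in DESeq2 with the block, and 0.053 in limma with and without it. PSMB6 turned to 0.15 without its most abundant guide and 0.094 with the block added, an alternative chosen after seeing the data. PSMB10 turned to 0.054 in limma with and without the block. With a library left out, log2 fold changes ran -0.45 to 2.62 for PSMA5, -0.43 to 0.96 for PSMB5, -1.15 to 1.25 for PSMB6, -0.25 to 1.29 for PSMB7, -0.16 to 0.51 for PSMB9, -0.31 to 0.16 for PSMB10 and -0.51 to 0.22 for PSMB11. The cause was not tested. Of the constitutive guides, 70 of 140 had too few counts to be tested.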
